A study of Zea mays with 16 samples.

Results

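The difference between the roots of 2 maize inbred lines before any waterlogging was measured on the 4 control arrays of a set of 16. HKI1105, the line tolerant to waterlogging, and V-372, the susceptible line, were grown in pots of sandy loam soil, watered daily, and sampled as unstressed roots 28 days after sowing, with 2 arrays per line. The other 12 arrays were hybridized with root RNA of the same lines under moderate stress (day 32), under severe stress (day 35) and at recovery (day 42), again with 2 arrays per line and stage. No unstressed roots of a later age were sampled, and the stage and the age of the plants cannot be told apart between the controls and the other groups. All 17621 probe sets of the array other than its 113 Affymetrix control probe sets were compared, as HKI1105 minus V-372 on the log2 scale. The 2 arrays of a group are biological replicates by the labels and technical ones by the methods, so that every p-value measures only the spread between arrays.

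An inbred line is close to genetically uniform, and maize lines differ widely from one another in the sequence, the presence and the expression of their genes. A probe set is a group of short probes designed on the transcript of one line, and a transcript that differs in sequence or is absent from another line binds them less well. A growing root draws on wall proteins, cellulose synthases, expansins and water channels for the elongation of its cells, on histones, replication factors and tubulins in its dividing tip, and on nitrate and phosphate carriers for uptake from the soil. Benzoxazinoids are defence compounds of young maize tissues, and the fermentation enzymes and haemoglobins are known from roots that run short of oxygen. The comparisons below ask how far the roots of the lines already differed before stress, which of those differences were also present in the waterlogged and recovered groups, and which were limited to the HKI1105 control.

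The values are GCRMA values, in which the background correction leaves absent or weak transcripts at a floor of 2.01. The HKI1105 control arrays stood apart from the other arrays in several ways that touch every result below. Their median over an array averaged 6.94, against 7.08 to 7.18 in the other 7 groups, and the correlation of their 2 arrays was 0.996, the lowest of the 8 groups. The poly-A spikes, bacterial transcripts added to the RNA before labelling, had a median level of 9.79 in the HKI1105 control and 7.31 in the V-372 control. Of their 42 probe sets 36 were higher in the HKI1105 control than in all 7 other groups. The remaining ones, named TrpnX, read 2.01 in all 8 groups. The hybridization spikes, added later, had median levels of 11.14 in the HKI1105 control and 10.04 in the V-372 control, with 26 of 27 probe sets above all other groups. The part of these in the differences below was not tested.

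Lists of root and leaf marker genes were read from the same arrays. The 36 probe sets of root preferential genes had a mean level of 5.17 and 5.16 on the HKI1105 control arrays, against 8.14 and 8.12 on the V-372 control arrays, and 21 of them in HKI1105 and 29 in V-372 exceeded the floor by over 1 log2 unit. On the 12 later arrays the mean of this list was 7.01 to 7.81, so that the HKI1105 control was the lowest of the 8 groups for this list. The list includes grp3, HRGP, piip1, tip2b and nas1, which are among the widest differences given below. It was also chosen with earlier results known, and is no separate check of the tissue. The median control difference was -1.77 over the 36 probe sets and -0.77 over the 29 named by the array's annotation. The 22 probe sets of nuclear photosynthesis genes had a mean of 5.09 and 5.23 on the HKI1105 control arrays and of 2.73 and 2.88 on the V-372 control arrays, and 17 and 7 of them lay above the floor. These leaf genes were higher on several later arrays of both lines, with means of 9.03 and 9.23 for HKI1105, against 6.91 and 6.83 for V-372, at moderate stress. At severe stress the means were 8.09 and 8.09 for HKI1105, against 10.6 and 10.5 for V-372. Kernel and pollen genes were close to the floor in both controls, with 3 of 22 kernel probe sets above it in each line, and 1 of 5 and 0 of 5 pollen probe sets. In a bulk sample, fewer cells of a type and less RNA per cell cannot be told apart.

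**Figure D1:**
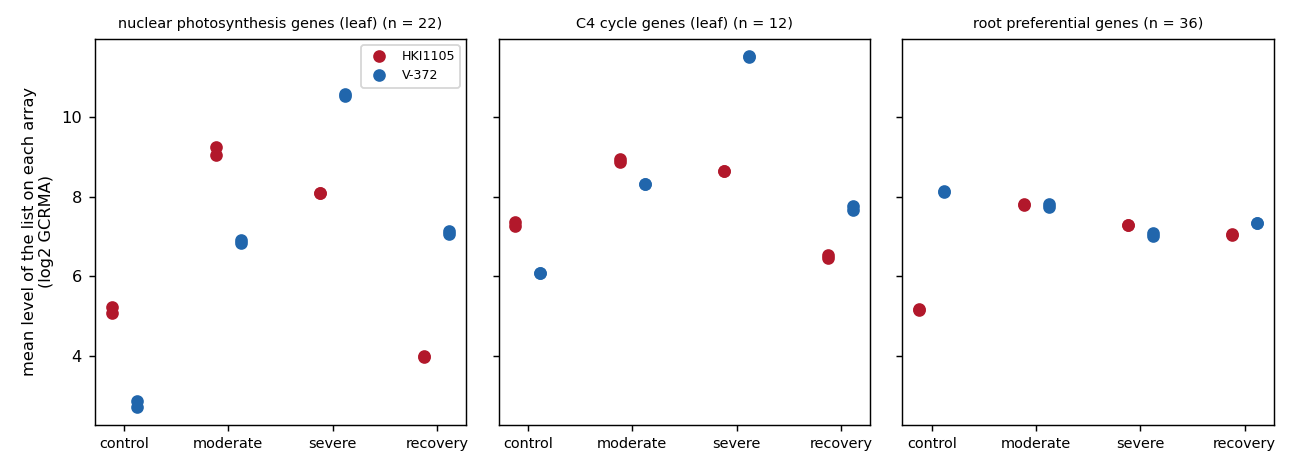
Mean level (log2 GCRMA) of 3 marker lists on each array by stage, HKI1105 in red and V-372 in blue, 2 arrays per group. In the HKI1105 control the root preferential genes lie at 5.17 and 5.16, below all other groups, and the nuclear photosynthesis genes at 5.09 and 5.23, above the V-372 control at 2.73 and 2.88.

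At a p of 0.001 or less in limma and a difference of 5-fold or more, the thresholds of the study, 728 probe sets (4.13%) were higher and 897 (5.09%) lower in HKI1105 controls than in V-372 controls, 9.22% of all probe sets. The median size of the called differences was 3.48 log2 units for the higher and 3.46 for the lower probe sets. More than 5 log2 units separated the lines for 117 of the higher and 186 of the lower probe sets, up to 11.81 and 11.25 log2 units. Many of these differences ended at the floor and are no ratio of 2 measured amounts. The V-372 control lay within 1 log2 unit of the floor for 304 of the 728 higher probe sets (41.8%), and the HKI1105 control for 211 of the 897 lower ones (23.5%).

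The difference between the lines was of like size at severe stress and smaller at the other stages. The Euclidean distance between the group means of the lines was 195.7 in the controls, 138.9 at moderate stress, 193.3 at severe stress and 139.8 at recovery. The same thresholds were passed by 718 probe sets (4.07%) at moderate stress, 1582 (8.98%) at severe stress and 770 (4.37%) at recovery. The nearest group to the HKI1105 control was the recovered group of the same line, at a distance of 149.7, while the V-372 control lay nearest to the V-372 roots under moderate stress, at 123.7.

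Of the 728 probe sets that were higher in the HKI1105 control, 172 were also called higher in HKI1105 at moderate stress, 218 at severe stress and 208 at recovery, where 2.12%, 3.47% and 2.32% of all probe sets were called in that direction. Of the 897 lower probe sets, 84, 108 and 87 were also called lower at these stages, against 1.95%, 5.51% and 2.05% of all probe sets. The later stages share no array with the controls. A difference was called again in the same direction at all 3 later stages for 127 of the higher (17.4%) and 58 of the lower (6.47%) probe sets, and these are the differences that held. At no later stage was it called in the same direction for 433 of the higher (59.5%) and 754 of the lower (84.1%) probe sets. The direction was called as opposite at 1 or more later stages for 147 of the higher (20.2%) and 67 of the lower (7.47%) probe sets, and at all 3 for 0 and 0.

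The change of the difference was tested as the control difference minus the mean of the 3 later differences in the same limma fit. This contrast was called as positive for 766 probe sets (4.35%) and as negative for 956 (5.43%). Among the probe sets called between the controls it was called in the direction of the control difference for 425 of 728 (58.4%) higher and 704 of 897 (78.5%) lower ones. These counts use the control arrays that chose the probe sets and are given as a description.

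**Figure D2:**
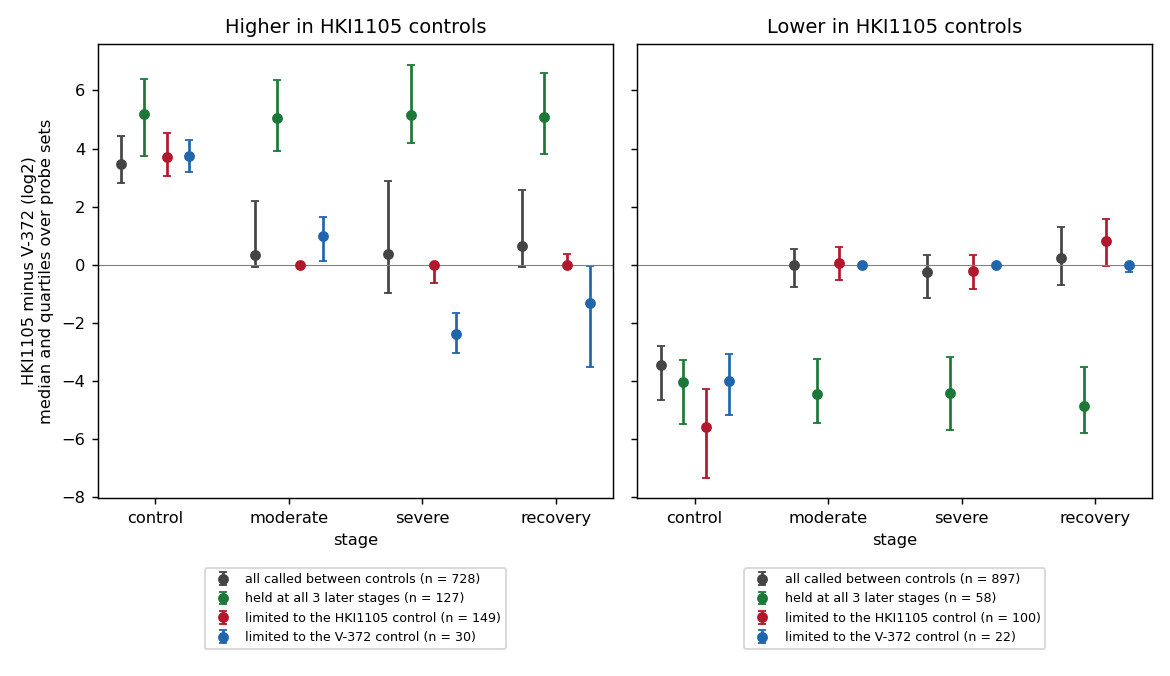
Median and quartiles of HKI1105 minus V-372 (log2) over probe sets at each stage, for the probe sets higher (left) or lower (right) in HKI1105 controls and for the classes named in the legends. Differences that held keep medians of 5.04 to 5.17 and of -4.87 to -4.04, while those limited to the HKI1105 control have later medians of 0.00 on the left and of -0.20 to 0.81 on the right.

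The differences that held had similar medians at every stage, while single genes varied more. For the 127 higher probe sets the median difference was 5.17 in the controls and 5.04, 5.16 and 5.08 at the 3 later stages, and for the 58 lower ones it was -4.04, then -4.45, -4.41 and -4.87. The line on the low side was near the floor throughout in many of them. All 4 V-372 groups lay within 1 log2 unit of the floor for 57 of the 127 higher probe sets, and all 4 HKI1105 groups for 22 of the 58 lower ones. A gene name was known for 8 of the 127 and for 2 of the 58, both of HRGP.

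The widest named difference that held belonged to an extensin-type structural protein of the cell wall, HRGP (hydroxyproline-rich glycoprotein). One of its probe sets read 2.10 and 2.05 on the HKI1105 control arrays and 12.59 and 12.48 on the V-372 control arrays. The lines did not overlap on any of the 16 arrays, since the 8 HKI1105 arrays stayed at 2.01 to 2.10 and the 8 V-372 arrays at 11.13 to 12.68. The difference was -10.46 ± 0.04 log2 units in the controls (limma, SE, n = 2 arrays per line, adjusted p = 1.35e-14) and -10.00, -10.65 and -9.13 at the later stages. A related HRGP probe set, which shares probes with other transcripts, also held, with 2.11 and 2.02 in the HKI1105 control and 12.31 and 12.22 in the V-372 control (-10.20 ± 0.11). The 2 further probe sets, which carry the name HRGP through the gene models of the study, behaved differently. The first, whose suffix marks probes shared by transcripts of one gene, differed by 0.04 between the controls, with both lines at the floor, and was higher in HKI1105 by 9.12, 8.21 and 8.56 at the later stages. The second, which shares probes with other transcripts, read 2.77 and 2.77 in the HKI1105 control and 10.65 and 10.47 in the V-372 control, and was limited to the HKI1105 control, with later differences of 0.27, 1.75 and 0.70. The probe sets under the name HRGP thus differed in the pattern they gave: 2 held, 1 was limited to the HKI1105 control and 1 was at the floor in both controls.

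The widest named difference that held in the other direction was that of pdc2, a pyruvate decarboxylase, which makes acetaldehyde in ethanolic fermentation. One probe set read 8.94 and 8.65 in HKI1105 controls and 2.23 and 2.01 in V-372 controls, a difference of 6.67 ± 0.21 (adjusted p = 1.92e-08 in limma, n = 2 per line). HKI1105 was above V-372 on every array, with later differences of 4.95, 5.04 and 5.68. The 2 other pdc2 probe sets were higher in HKI1105 controls by 2.65 and 2.87 but lower by 3.96 and 3.76 at moderate stress, so that only 1 of the 3 pdc2 probe sets held.

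The further named genes that held were all higher in HKI1105. The glutathione S-transferase gst18, of a family that conjugates glutathione to toxic compounds, read 10.53 and 10.61 in HKI1105 controls and 6.14 and 5.67 in V-372 controls (4.67 ± 0.19), and was higher by 4.07, 7.66 and 2.35 later. The cellulose synthase CesA-4 read 11.92 and 11.72 in HKI1105 controls and 8.01 and 8.08 in V-372 controls (3.77 ± 0.23), with 5.70, 6.29 and 4.61 later. Both were well above the floor in both controls, so that their control differences were measured on each side, whereas V-372 was at the floor for gst18 at severe stress (2.20 and 2.01). MPK17-2, a mitogen-activated protein kinase, was higher by 4.38 ± 0.34 in the controls and by 2.43, 5.65 and 4.57 later. For CesA-4 and 2 further genes the control difference was the smallest of the 4. The beta-carotene hydroxylase gene crtRB1 was higher by 3.88 ± 0.39 in the controls and by 6.20, 7.40 and 8.08 later, and the histone H2B gene his2b5 by 3.08 ± 0.31 and by 8.06, 7.30 and 7.35. In both genes V-372 stayed near the floor, and the HKI1105 control arrays, at 5.44 and 7.00 for crtRB1 and at 6.29 and 5.17 for his2b5, were below the later HKI1105 arrays.

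**Figure D3:**
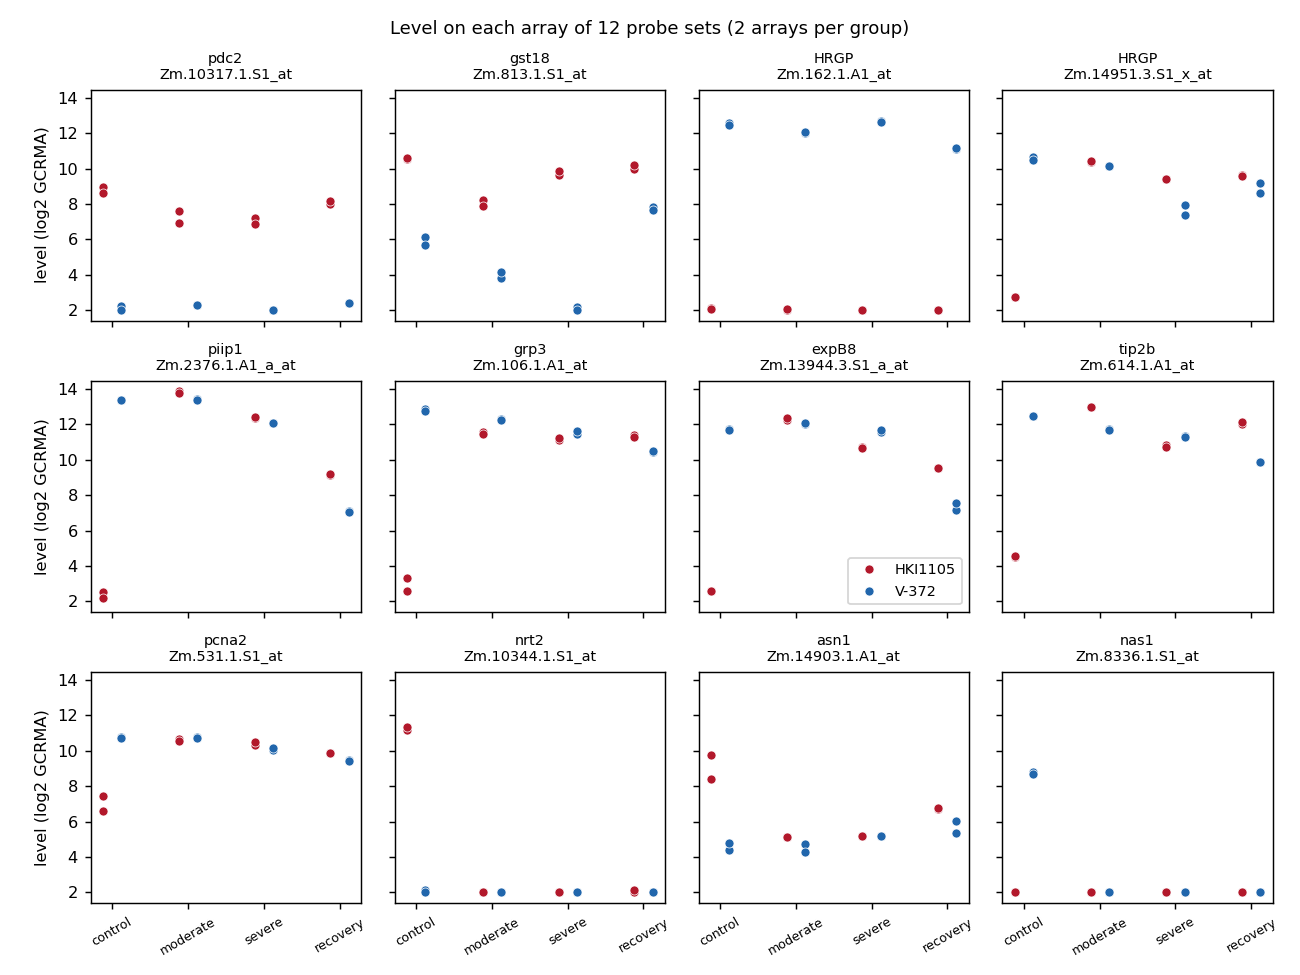
Level (log2 GCRMA) of 12 probe sets on each array by stage, HKI1105 in red and V-372 in blue, 2 arrays per group. The pdc2, gst18 and first HRGP probe sets separate the lines at every stage, whereas nrt2 is above the floor in the HKI1105 control only (11.17 and 11.37), nas1 in the V-372 control only (8.78 and 8.69), and piip1, grp3, expB8 and tip2b are low in the HKI1105 control only.

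A difference was taken as limited to the HKI1105 control where it was called in the same direction at no later stage and where the HKI1105 control also passed both thresholds against each of the 7 other groups. This was so for 149 of the 728 higher (20.5%) and 100 of the 897 lower (11.1%) probe sets. For the 149, the median level was 6.84 in the HKI1105 control and 2.12 to 2.42 elsewhere. For 93 of them the V-372 control was within 1 log2 unit of the floor. For the 100, it was 3.75 in the HKI1105 control and 8.08 to 10.59 in the 7 other groups. By these medians, the level in the other 7 groups was high for the lower class and close to the floor for the higher class, with members that depart from this. These classes were chosen on the same arrays and their levels are a description.

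**Figure D4:**
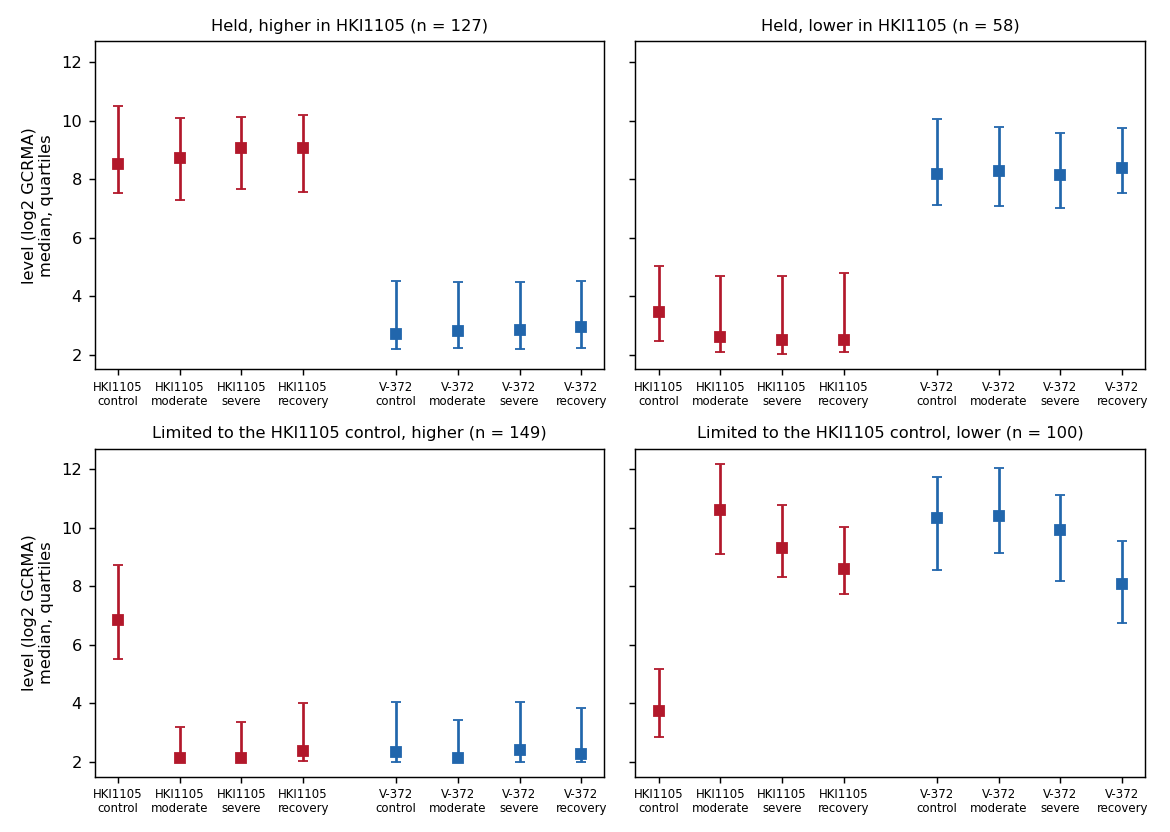
Median and quartiles of the level (log2 GCRMA) over the probe sets of 4 classes in each of the 8 groups, HKI1105 in red and V-372 in blue. Held differences separate the lines in all groups, for example 8.53 in the HKI1105 control and 2.71 in the V-372 control for the higher class, and in the limited classes the HKI1105 control alone is displaced, at 6.84 and at 3.75.

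Among the named genes low in the HKI1105 control only, those of the cell wall and of the root cortex had the widest differences. A probe set described as the precursor of cortical cell-delineating protein, a proline-rich protein known from the root cortex, read 2.66 and 2.75 in HKI1105 controls and 13.96 and 13.95 in V-372 controls. The difference was -11.25 ± 0.07 (adjusted p = 4.17e-13 in limma, n = 2 per line), the widest of all lower probe sets, and -0.06, -0.68 and 1.21 at the later stages. The physical impedance induced protein gene piip1 read, on its widest probe set, 2.53 and 2.17 in HKI1105 controls and 13.39 and 13.40 in V-372 controls (-11.05 ± 0.10), with 0.40, 0.30 and 2.10 later. Of the other piip1 probe sets, 3 were lower by 4.65 to 8.95, 1 differed by -0.58 and 1 by 1.58. The glycine-rich protein gene grp3 read 3.29 and 2.58 in HKI1105 controls and 12.84 and 12.77 in V-372 controls (-9.87 ± 0.18), and -0.77, -0.36 and 0.87 separated the lines later. In all 3 genes the HKI1105 control arrays were far below all 14 other arrays, and the lines lay within 2.10 log2 units of each other once waterlogged or recovered.

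Over the list of structural wall proteins, 8 of 12 probe sets were lower and 1 higher in HKI1105 controls at an adjusted p under 0.05 in limma, with a median difference of -7.60. Those that passed carry only the names piip1, HRGP and grp3. The count and the median are thus over several probe sets of few genes, not over separate genes. Over all probe sets 24.1% were higher and 30% lower at this threshold, the median difference was 0.00, and these shares stand beside each list count that follows. Part of the names in the lists come from gene models that the study gave for probe sets it had called on these same arrays. Among the 1258 probe sets named by the annotation of the array alone, 22.7% were higher and 36% lower, and the structural wall proteins so named were 7 of 10 lower and 1 higher. At the later stages the median of the list was 0.20, 0.10 and 0.76.

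Of the expansins and xyloglucan enzymes, which loosen the wall for growth, 12 of 18 probe sets were lower and 1 higher in HKI1105 controls (median -1.56, then 0.20, 0.00 and 0.85). The beta-expansin expB8 read 2.58 and 2.60 in HKI1105 controls and 11.74 and 11.69 in V-372 controls (-9.13 ± 0.11), and the alpha-expansin expa1 read 2.40 and 2.01 in HKI1105 controls and 9.95 and 9.96 in V-372 controls (-7.75 ± 0.13). Both were limited to the HKI1105 control, though expa1 was called in the opposite direction at recovery, with a difference of 2.49. The other expansins expB4 and EXPA5 were lower by 6.56 and 4.46. The higher member was the xyloglucan endotransglycosylase xet1, by 2.97 ± 0.07, for which the V-372 control, at 8.27 and 8.37, was the group that stood apart from the others.

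Of the cellulose synthases and related wall genes, 12 of 15 probe sets were lower and 3 higher, with a median of -1.65 in the controls and of 0.45, 1.08 and -0.15 later. All of them were expressed well above the floor. The cellulose synthase genes cesa11 and cesa7 and the COBRA-like gene bk2 (brittle stalk), which is needed for the strength of secondary walls, were lower by 3.22, 3.12 and 2.98, and none of them was limited to the HKI1105 control. The 3 higher probe sets were both of CesA-4, which held, and cesa3, higher by 0.92 ± 0.15.

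Of the 37 aquaporin probe sets, 19 were lower and 8 higher, with a median of -0.24. The tonoplast aquaporin tip2b read 4.53 and 4.55 in HKI1105 controls and 12.49 and 12.47 in V-372 controls, a difference of -7.94 ± 0.04 (adjusted p = 3.37e-13 in limma, n = 2 per line), against 1.25, -0.54 and 2.21 at the later stages. The HKI1105 control arrays were the lowest of the 16 by more than 5 log2 units. The related tonoplast gene por2 read 7.90 and 7.99 in HKI1105 controls and 13.27 and 13.34 in V-372 controls (-5.36 ± 0.12), and the plasma membrane aquaporin gene pip2f was lower by 5.00 and nip3a by 4.18. All 4 were limited to the HKI1105 control, as were pip2d and pip1e, lower by 3.85 and 2.62. Of all 17621 probe sets, 100 were lower and limited in this way. The difference of nip3a was 1.56, 2.54 and 0.84 at the later stages, and was called in the opposite direction at severe stress. The silicon channel gene Lsi1, a root gene, went the other way on 2 of its 3 probe sets, which were higher by 3.35 and 3.21 and differed by 0.80 or less later. The difference on the third, with both controls at the floor, was 0.00.

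Histone, replication and cell cycle genes and, as a separate list, tubulin genes were mostly lower as well. Of the histones, replication and cell cycle genes 27 of 41 probe sets were lower and 4 higher (median -0.89, then 0.00, 0.22 and 0.30), and of the tubulins 16 of 18 were lower and 0 higher (median -1.96, then 0.51, 0.67 and 0.10). The sliding clamp gene pcna2, which holds the polymerase on DNA, read 6.61 and 7.43 in HKI1105 controls and 10.78 and 10.70 in V-372 controls (-3.72 ± 0.21), and MCM6, a subunit of the replicative helicase, was lower by 3.58 ± 0.31. Both were limited to the HKI1105 control. The cyclin gene cyc3 read 2.60 and 2.62 in HKI1105 controls and 7.66 and 8.04 in V-372 controls (-5.24 ± 0.30), and the tubulin genes tub6 and TUB1 were lower by 4.62 and 4.06. At the later stages cyc3 differed by -0.66 to 1.48 and tub6 by -0.14 to 0.54. Of the 52 probe sets of ribosomal proteins and translation factors 23 were lower and 4 higher, by small amounts (median -0.19, which turned to 0.01 with each array centred on its own median), and the ribosomal protein gene rps21b was lower by 3.23 ± 0.12 and by 1.14 to 1.41 later.

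The widest named difference limited to the HKI1105 control on the higher side was that of a nitrogen gene. The high-affinity nitrate transporter gene nrt2 read 11.17 and 11.37 in HKI1105 controls and 2.16 and 2.01 in V-372 controls (9.19 ± 0.07, adjusted p = 2.64e-12 in limma, n = 2 per line). The other 12 arrays read 2.01 to 2.16, so that nrt2 was above the floor in the HKI1105 control alone. Asparagine synthetase, which stores nitrogen in asparagine, had 9.78 and 8.40 in HKI1105 controls and 4.41 and 4.82 in V-372 controls on one asn1 probe set (4.48 ± 0.41), and 8.47 and 8.46 in HKI1105 controls and 6.98 and 6.68 in V-372 controls on another (1.63 ± 0.18). The phosphate transporter gene pht7 read 11.99 and 12.14 in HKI1105 controls and 4.66 and 4.84 in V-372 controls (7.31 ± 0.15), and remained higher by 1.21, 1.18 and 5.00 at the later stages. The glutamine synthetase gene gln3 was higher by 4.29 ± 0.44 and by 3.38, 3.06 and 1.98 later. Of the 21 probe sets for nitrogen, phosphate and sulphate uptake and assimilation 14 were higher and 3 lower, with a median of 1.51 in the controls and of 0.00, 0.22 and 0.08 later.

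Further named genes limited to the HKI1105 control and higher there, of 22 named probe sets in all, included regulators and a protease inhibitor. DBP4 belongs to the ethylene-responsive element binding family by its synonym and read 7.40 and 7.47 in HKI1105 controls, against 2.02 and 2.02 in V-372 controls and 2.02 to 2.15 on the other arrays (5.42 ± 0.04). The cystatin gene cpi2, an inhibitor of cysteine proteases, was higher by 4.82 ± 0.24, with -0.29, 1.56 and 2.12 at the later stages. A smaller difference of cpi2 thus remained at severe stress and at recovery. The gene lg2, a bZIP factor known from the ligule of the leaf, was higher by 4.80 ± 0.19. TLA1 was higher by 4.51 ± 0.29. Of the 70 probe sets of homeobox, LOB, MYB, MADS and bHLH factors 15 were higher and 17 lower. Limited to the HKI1105 control were 7 of the higher ones, beside 149 of all 17621 probe sets. Over the 51 named by the array's annotation 10 were higher and 7 lower, and 4 of the higher ones were so limited. The 7 included bHLH108, with 12.39 and 12.48 in HKI1105 controls and 8.35 and 8.27 in V-372 controls. Also among them was one of the MYB1 probe sets, with 5.93 and 5.15 in HKI1105 controls and 2.01 and 2.01 in V-372 controls. The homeobox gene ocl1 and the LOB gene LOB21 were lower by 4.53 and 4.30, and neither of them was limited to the HKI1105 control.

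The mirror class, limited to the V-372 control, held 30 of the 728 (4.12%) and 22 of the 897 (2.45%) probe sets. The nicotianamine synthase gene nas1, whose product chelates iron, read 2.01 and 2.02 in HKI1105 controls and 8.78 and 8.69 in V-372 controls (-6.72 ± 0.02, adjusted p = 6.64e-15 in limma, n = 2 per line). All 12 later arrays read 2.01. A probe set of nas1 whose suffix marks shared probes differed by -5.995, and the 2 others differed by 0.75 and 0.00 near the floor. Some leaf genes of this class were on the other side, higher in HKI1105 controls. lhcb7, a chlorophyll-binding antenna protein, read 9.50 and 9.46 in HKI1105 controls and 2.96 and 3.14 in V-372 controls (6.43 ± 0.07), and its difference was 1.49 at moderate stress, -1.90 at severe stress and -3.51 at recovery. Lhcb5-2, of the same family, was higher by 4.08 ± 0.25, and the protease inhibitor gene sci1 by 4.32 ± 0.14. Of the 22 nuclear photosynthesis probe sets 17 were higher and 0 lower in HKI1105 controls, but only 4 were limited to the V-372 control. Their medians were 2.26 in the controls, 1.81 at moderate stress, -2.92 at severe stress and -3.57 at recovery, over all 22. Of 12 C4 cycle probe sets 9 were higher and 1 lower, and 0 were limited to the V-372 control. The widest was pep1, the phosphoenolpyruvate carboxylase of C4 leaves, with 8.07 and 8.02 in HKI1105 controls and 3.05 and 2.41 in V-372 controls (5.31 ± 0.29).

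Most of the differences called at no later stage belonged to neither of these classes. They numbered 254 of the higher (34.9% of the 728) and 632 of the lower (70.5% of the 897) probe sets. For 127 of the 254 and 235 of the 632, the HKI1105 control arrays alone lay outside the range of the other 14 arrays. The V-372 control arrays alone did so for 45 and 158, both pairs for 18 and 114, and neither pair for 64 and 125. These positions come from the arrays that chose the probe sets and are a description. They were counted for the called probe sets only, so that no share over all probe sets stands beside them. Each control was also set against the 7 other groups. The HKI1105 control passed the thresholds against more groups than the V-372 control for 66.9% of the 254 and 58.9% of the 632. The V-372 control passed against more groups for 65 and 173 probe sets, and the numbers were equal for 19 and 87. These counts likewise have no share over all probe sets beside them. Whether the HKI1105 control stood apart more often here than among all probe sets was not tested.

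Hormone genes differed in both directions. Of the cytokinin genes 12 of 22 probe sets were higher and 5 lower (median 0.40, then -0.40, 0.48 and -0.45). The response regulator crr1 averaged 12.03 in HKI1105 controls and 7.32 in V-372 controls (4.71 ± 0.20). The cytokinin oxidases cko3 and cko2, which break cytokinin down, were higher by 4.57 ± 0.17 and 3.96 ± 0.06 in the controls, and their differences were -3.64 and -5.32 at moderate stress. Of the ethylene genes 3 of 10 were higher and 3 lower, and the ACC oxidase gene acco20, of the last step of ethylene synthesis, read 11.07 and 11.04 in HKI1105 controls and 6.86 and 7.02 in V-372 controls (4.11 ± 0.24), with -1.49, -1.37 and -3.20 later. Of the 7 auxin probe sets 4 were higher and 3 lower (median 1.15, and -0.76 over the 3 named by the array's annotation). The Aux/IAA gene IAA12 read 4.16 and 3.34 in HKI1105 controls and 9.92 and 9.73 in V-372 controls (-6.08 ± 0.23), and the auxin import carrier gene aic1 was lower by 4.65 ± 0.20.

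Genes linked to low oxygen were not shifted as a group. Of 25 fermentation and glycolysis probe sets 7 were higher and 10 lower, with a median of -0.14 that turned to 0.06 with each array centred on its own median. Beside pdc2, the aldehyde dehydrogenase gene aldh5 was higher by 3.64 ± 0.25 in the controls only, with later differences of -1.20, -0.77 and -1.36. The pyruvate decarboxylase gene pdc1 read 2.65 and 3.74 in HKI1105 controls and 8.18 and 8.11 in V-372 controls (-4.95 ± 0.28), the direction opposite to pdc2, and differed by -2.19, -2.75 and 0.25 later. The haemoglobin gene Hb2 read 10.23 and 10.35 in HKI1105 controls and 6.67 and 6.79 in V-372 controls (3.56 ± 0.15), with -3.32 at moderate stress, 3.59 at severe stress and -0.63 at recovery. Of the 11 sucrose cleavage probe sets 4 were higher and 2 lower, and the vacuolar invertase gene ivr2 was limited to the HKI1105 control, at 4.10 and 3.35 against 11.23 and 11.09 in V-372 controls (-7.43 ± 0.19).

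Defence genes differed gene by gene. Of the 11 benzoxazinoid probe sets 6 were lower and 1 higher (median -1.23), with BX5, bx2, BX4 and BX3 lower by 4.65, 4.12, 3.94 and 3.32. These names come largely from the study's gene models, and over the 6 probe sets named by the array's annotation 2 were lower and 1 higher, with a median of 0.20. The differences of these 4 genes were -0.69 to 2.32 under stress, and -1.81 to -4.13 at recovery. Of 24 defence protein probe sets 9 were higher and 9 lower. The highest, sip1, read 8.58 and 8.68 in HKI1105 controls and 2.36 and 2.47 in V-372 controls (6.22 ± 0.15) and stayed higher by 1.74, 5.95 and 8.51, while the wound-induced inhibitor gene wip1 was lower by 4.75 ± 0.10 and the lipoxygenase gene lox1 by 4.52 ± 0.09. Of 35 glutathione S-transferase probe sets 11 were higher and 15 lower, and gst12 read 2.97 and 2.26 in HKI1105 controls and 8.91 and 9.10 in V-372 controls (-6.40 ± 0.21), with a difference of 5.38 at recovery. The median of this list was -0.12, and 0.08 with each array centred on its median.

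Of 9 lignin and phenylpropanoid probe sets 6 were lower and 1 higher, with the chalcone synthase gene c2 lower by 1.90 ± 0.03. Of 4 class III peroxidases 3 were lower and 0 higher, with PER42 lower by 2.67 ± 0.19. Of 12 heat shock probe sets 2 were higher and 5 lower, with hsp18 higher by 3.33 ± 0.10, and of 14 dehydrin and ABA probe sets 2 were higher and 7 lower, with the dehydrin gene dhn-2 lower by 3.23 ± 0.08 on one of its probe sets and vp1, a transcription factor of ABA signalling known from the seed, higher by 2.82 ± 0.17. The antioxidant enzymes had 3 of 11 higher and 3 lower, the iron and nicotianamine genes 3 of 10 and 3, the proton pumps and potassium channels 2 of 12 and 2, and the lipid transfer proteins 0 of 2 and 0. The root preferential genes, which overlap with several lists above, had 20 of 36 lower and 4 higher, with a median of -1.77 in the controls and of 0.29, 0.23 and 0.00 later. Over the 29 of them named by the array's annotation 15 were lower and 4 higher, with a median of -0.77.

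**Figure D5:**
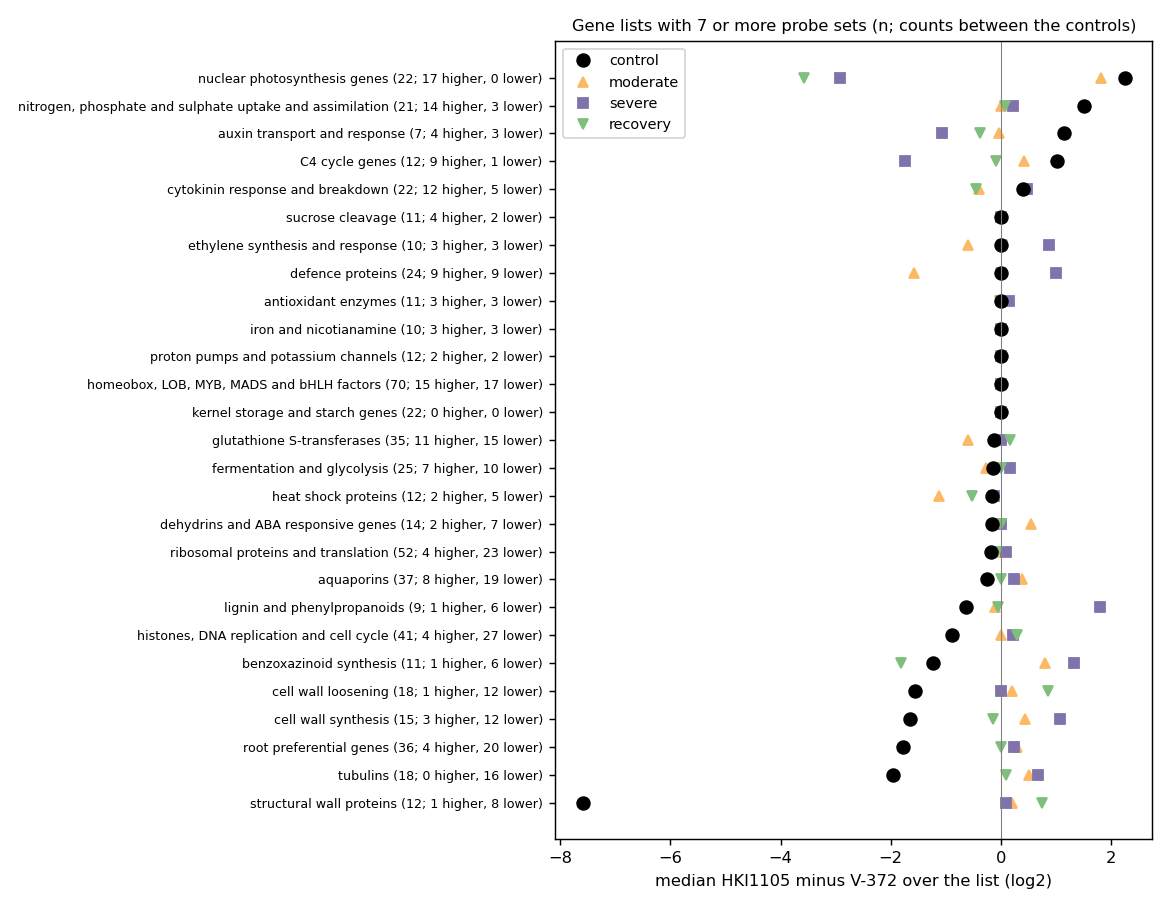
Median HKI1105 minus V-372 (log2) over each gene list with 7 or more probe sets at the 4 stages, with the number of probe sets and the counts higher and lower between the controls beside each name. Structural wall proteins (-7.60) and tubulins (-1.96) lie lowest in the controls and close to or above 0 later, and nuclear photosynthesis genes lie at 2.26 in the controls and at -3.57 at recovery.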

How the data were processed

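Root RNA was hybridized to 16 Affymetrix GeneChip Maize Genome Arrays, with 1 value per probe set and array. The deposited values are log2 values that the authors made with GCRMA, which corrects the background, normalizes across arrays and summarizes the probes, after reading the scans with the affy package; the version of GCRMA is not given in the sources used here. They were used without further scaling. The authors' files hold no detection calls, so that levels near the floor of 2.01 were read as near the floor only. The 113 Affymetrix control probe sets were left out, and 17621 were tested.

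A mean for each of the 8 groups was fitted to all 16 arrays (limma 3.58.1, R 4.3.3). The variances were moderated by empirical Bayes, with 8 residual and 0.463 prior degrees of freedom and a median residual SD of 0.101. A probe set was called at p of 0.001 or less and 5-fold or more, the thresholds of the study. Single genes and list members passed at a Benjamini-Hochberg adjusted p under 0.05 over all 17621 probe sets. Errors after ± are standard errors. The number of arrays, 2 per group, limits the precision of every value.

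Names were available for 1594 of 17734 probe sets: 1258 from the annotation of the array, 231 from the B73 gene models to which the study mapped the probe sets it called and 105 by description only. The annotation lists 1453 probe sets, of which 1452 have 1 symbol and 1 has several, and 1377 matched a RefSeq gene. From 32 gene lists, matched to whole symbols with or without hyphens, 59 names that belong to another gene or tissue were taken out. Named genes were the 6 widest differences in each held or limited class, up to 3 for the classes limited to the V-372 control, and up to 4 per list; genes given beside these were chosen after their values were seen. One gene that the rule names is not reported here. The members, lists and classes were chosen with earlier results of these data known.

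On simulated data the same code called 194 of 200 changed probe sets the right way and 0 of the unchanged ones among 17621, with 94 of 100 at 6-fold. It found 91 of 100 differences made to hold and 93 of 100 made to be limited. Each unchanged probe set was drawn with the same mean in all groups and normal noise of its fitted SD, so that few of them could reach 5-fold. No floor was simulated. The simulation thus checks the code and gives no error rate for the real arrays, where many differences end at the floor. Alternatives were quantile normalization, centring of each array on its median, a filter on the floor, another prior, a looser call, the 4 control arrays alone, a replicate block and each array left out. The numbers of the arrays were not taken as pairs: deviations from the group means of arrays with the same number correlated at -0.014 between the controls and at -0.16 to 0.203 over the 28 pairs of groups. The co-expression network, ontology classes and PCR values of the study were not used here.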

Additional observations from a re-analysis of the deposited data

Results flagged for a closer look

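The difference between the lines in the controls was compared, by a contrast in limma, with the mean difference of the 3 later stages, and 766 probe sets passed the thresholds with a positive and 956 with a negative result. The named genes that passed are given by this contrast on the log2 scale. A positive value means that HKI1105 minus V-372 was higher in the controls than later. Genes were named largely by the size of their control difference, which is part of the contrast, so that their values are a description. No group had the 4 arrays needed to look for a single array far from the others.

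Among wall genes the contrast was -11.98 for piip1, -11.40 for the cortical cell-delineating protein precursor, -9.78 for grp3 and -8.69 for the HRGP probe set with shared probes. It was -9.62 for expB8, -8.51 for expa1, -7.58 for expB4 and -4.25 for EXPA5, and -3.41 for cesa7, -3.18 for cesa11 and -3.05 for bk2. The aquaporins tip2b, por2, nip3a and pip2f had -8.92, -5.98, -5.82 and -5.20. Among the replication, cell cycle and tubulin genes it was -5.82 for cyc3, -3.92 for pcna2, -3.80 for MCM6, -5.22 for TUA1, -4.79 for tub6, -4.63 for TUB1 and -3.87 for tua4. All of these were lower in HKI1105 controls than in V-372 controls.

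The contrast was also negative for BX4 (-4.44), BX5 (-4.24), bx2 (-3.17) and BX3 (-2.96) of benzoxazinoid synthesis, for lox1 (-5.62) and wip1 (-5.28), for the peroxidases PER66 (-6.32) and PER42 (-4.83), for gst12 (-8.63) and gst41 (-5.08), and for dhn-2 (-4.04) and esp5 (-3.32). Among regulators it was -5.53 for aic1, -4.43 for IAA12, -3.17 for EREB85, -5.13 for LOB21 and -4.47 for ocl1. It was -6.99 for ivr2, -3.39 for pdc1, -6.72 for nas1 and -3.06 for rc123A. PER66 lay at the floor in both controls and its difference arose at the later stages, where it was higher in HKI1105 by 7.92, 4.71 and 6.20. For his2b5 (-4.49) and crtRB1 (-3.35) the difference held at every stage and was smallest in the controls.

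Positive values were found for nrt2 (9.16), pht7 (4.85) and asn1 (3.91), for cko3 (6.75), cko2 (6.64), crr1 (3.56) and cko1 (2.97), for acco20 (6.13) and ARF28 (2.58), and for DBP4 (5.42), lg2 (4.62), TLA1 (4.19) and cpi2 (3.69). The leaf genes pep1, lhcb7, Cab-m7, Lhcb5-2, psbs1, rbcS and rca1 had 8.59, 7.73, 7.62, 6.29, 5.94, 5.02 and 3.84; lhcb7 and Cab-m7 are probe sets of one gene by a shared synonym. The contrast was 5.03 for hsp18a, 4.47 for hsp18, 4.75 for aldh5, 3.68 for Hb2, 3.13 for IVR1, 4.64 for sci1, 4.05 for GST39 and 3.001 for vp1. Of the 12 heat shock probe sets only 1, hsp18, was called higher in the controls at 5-fold. At moderate stress 10 of the 12 were lower in HKI1105 and 0 higher, at an adjusted p under 0.05 in limma. For plt2, a lipid transfer protein near the floor in both controls and lower in HKI1105 at severe stress, the contrast was 3.40.

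The spikes lie outside the comparison of root genes. The median over their probe sets of the HKI1105 control level minus the median of the other groups was 2.26 for the poly-A spikes and 1.25 for the hybridization spikes. The part of this in the differences above was not tested.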

How the results depend on the processing

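The limits are those of 2 arrays per group, of a floor that ends many differences and of values without detection calls. With the same-numbered arrays as a replicate block, 726 and 896 probe sets were higher and lower in HKI1105 controls, 127 and 58 held and 149 and 98 were limited to the HKI1105 control, and the block changed no call of the 123 named probe sets. Since the numbers do not pair the arrays, this is given once.

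At an adjusted p under 0.05 and 2-fold in limma, 2009 probe sets were higher and 2627 lower, 291 and 175 held, 385 and 412 were limited to the HKI1105 control, 68 and 119 to the V-372 control, and 2417 and 2697 had a positive and a negative contrast with the later stages. Fitted to the 4 control arrays only, 394 were higher and 534 lower; this leaves 4 arrays for the variance, and the classes that need later stages could not be fitted. Centring each array on its median moved all probe sets of the HKI1105 control by 0.20 relative to the V-372 control, and higher calls made up 51.4% of all, against 44.8% on the deposited values and 48.8% after quantile normalization. The list members that passed as higher then numbered 217, against 115 on the deposited values, and prf1, at the floor in both lines, moved to 0.20. Any probe set at the floor on the control arrays of both lines is given this same shift. How many of the 217 lie there was not counted, so the rise is not read as more genes that were higher. The medians near 0 turned positive on centring, at 0.04 for dehydrins, 0.04 for heat shock proteins (0.08 after quantile normalization), 0.06 for fermentation, 0.08 for glutathione S-transferases and 0.01 for ribosomal proteins.

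Leaving out 1 array at a time gave 709 to 743 higher and 874 to 897 lower probe sets, 122 to 129 and 54 to 60 that held, 135 to 152 and 96 to 109 limited to the HKI1105 control, 29 to 31 and 20 to 25 to the V-372 control, 729 to 784 positive and 940 to 965 negative contrasts, 107 to 120 and 203 to 219 list members, and 112 to 116 named probe sets that passed. Without the severe stage, an alternative chosen after seeing the data, 140 and 63 held, 196 and 126 were limited to the HKI1105 control and 39 and 25 to the V-372 control. With the filter on the floor and with the other prior, all counts stayed within 1.5 times the values of the report.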
